A study of Mus musculus with 4 samples.

Results

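The 6 genes that encode the platelet-derived growth factors (PDGFs) and their receptors, Pdgfa, Pdgfb, Pdgfc, Pdgfd, Pdgfra and Pdgfrb, were examined in mouse ovaries with and without Sall1 overexpression. They were taken by name from the 34682 genes of the count table. The data are 4 RNA-seq libraries from ovaries of E13.5 embryos. 2 libraries came from mutants that carry a BAC, a large genomic insert, in which the coding sequence of Sall1 stands under the promoter and regulatory elements of Wt1, a gene of gonadal somatic cells. The other 2 are wild-type, and both groups number their replicates 1 and 2. The BAC was integrated with piggyBac elements into female embryonic stem cells, from which the mice were made by morula aggregation, so the mutants descend from picked clones. The stem cells had a C57BL/6J background or a hybrid one of C57BL/6J and 129. The names of the wild-type columns contain B6, whereas the methods name CD1 for wild-type RNA-seq gonads and the results speak of littermates, so the strain of the controls is uncertain, and a part of strain in a difference cannot be told apart from genotype. The labels do not state whether a library pools several embryos.

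PDGFs are secreted dimers that bind receptor tyrosine kinases on neighbouring cells. PDGF-A and PDGF-C act mainly through the receptor encoded by Pdgfra, whereas PDGF-B binds both receptors and PDGF-D mainly the one encoded by Pdgfrb. In many tissues endothelial cells release PDGF-B, which draws Pdgfrb-expressing pericytes to the vessel wall, while Pdgfra marks mesenchymal cells. In the fetal testis, signalling through Pdgfra is needed for vessel patterning and for the differentiation of Leydig cells, and the receptor has been used as a marker of cell migration into the gonad.

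The promoters of Pdgfra and of Pdgfa, the ligand that acts through it, are shown because Pdgfra had the largest difference of the 6 genes. Both are RefSeq sequences of build GRCm38.p6, running from 250 bases before to 50 bases after the start site, so the last 50 bases belong to the first exon. The Pdgfra window is chr5:75152001-75152300 on the plus strand, and the Pdgfa window is chr5:138994895-138995194 on the minus strand, given 5′ to 3′. Capitals mark a run of 11 G in Pdgfra and matches to the GC box in Pdgfa.
Pdgfra: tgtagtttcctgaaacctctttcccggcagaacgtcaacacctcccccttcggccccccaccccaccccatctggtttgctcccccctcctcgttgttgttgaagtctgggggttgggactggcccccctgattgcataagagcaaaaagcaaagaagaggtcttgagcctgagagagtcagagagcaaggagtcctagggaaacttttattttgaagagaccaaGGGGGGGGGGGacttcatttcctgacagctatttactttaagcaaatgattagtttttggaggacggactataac
Pdgfa: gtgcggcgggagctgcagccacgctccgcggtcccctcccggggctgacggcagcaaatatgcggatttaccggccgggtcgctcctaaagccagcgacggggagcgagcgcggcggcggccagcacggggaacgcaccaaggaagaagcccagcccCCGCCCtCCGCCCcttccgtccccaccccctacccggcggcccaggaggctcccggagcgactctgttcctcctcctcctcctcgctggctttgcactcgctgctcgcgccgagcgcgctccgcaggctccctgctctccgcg

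The G and C content was 51% in the Pdgfra window and 73.3% in the Pdgfa window, against a median of 52.7% over all 32851 promoters in the table. The run of 11 G in Pdgfra begins 25 bases before the start site, and 2.23% of all promoters hold a run of G or C at least as long. Searched on both strands, the TATA box (letters TATAAA, found in 13.6% of promoters), the CCAAT box (letters CCAAT, in 37.4%), the AT-rich hexamer (letters AATATT, in 6.81%) and the EGR and WT1 motif (letters GCGNGGGCG, in 5.55%) had 0 matches in both windows. The GC box (letters GGGCGG, in 35.7%) had 2 matches in Pdgfa, 93 and 86 bases before the start site, and 0 in Pdgfra. A further Pdgfa start in the table, with the window chr5:138994232-138994531, had a G and C content of 67% and 1 GC box, 60 bases before that start, and 0 matches to the other motifs. These matches describe letters and not bound sites. Promoters of 4 of the 6 members were in the table, the others being those of Pdgfc and Pdgfd, which are not shown.

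Library totals ranged from 11036313 to 17869840 counts, the mutant libraries being the shallower. A count of 3, the floor used here, corresponded to 0.17 to 0.272 CPM (counts divided by library size, with edgeR's TMM factors). Sall1 had 113 and 96 CPM in the mutant libraries against 16.2 and 12.6 CPM in the wild-type libraries, so the targeted gene followed the labels. The ovarian marker Foxl2 had 46.3 and 44.1 CPM in the mutant and 28 and 32 CPM in the wild-type libraries, whereas Amh, the hormone of Sertoli cells, had 3 counts in each library. Libraries also differed in other tissues. The summed level of the blood cell markers was 3220 and 881 CPM in mutant replicates 1 and 2 and 3570 and 1740 CPM in the wild-type replicates. That of the skeletal muscle markers was 317 CPM in wild-type replicate 1 against 75 to 115 CPM in the other 3 libraries, of which Myh3, an embryonic myosin, made up 91.7 CPM in wild-type replicate 1.

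All 6 genes were detected far above the floor in every library and all 6 passed the filter on low counts. For differences between the groups, edgeR's quasi-likelihood test was run over 15442 genes with Benjamini-Hochberg adjustment, and an adjusted p under 0.05 was called. None of the members passed, 0 of 6, where 9 of all genes did (0.0583%), 7 of them lower in mutants (0.0453%). At an unadjusted p under 0.05, Pdgfra and Pdgfrb were lower in the mutants, 2 of 6 members against 2.73% of all genes tested. With DESeq2, the tool named in the methods, 1 member was called, Pdgfra, as lower in mutants. Of the 14709 genes that received an adjusted p, DESeq2 called 0.714%, with 0.428% lower and 0.286% higher in mutants. The fitted log2 fold change was negative for all 6 genes, with a median of -0.20 beside -0.00088 over all genes tested. In 4 of them, Pdgfra, Pdgfrb, Pdgfc and Pdgfd, both mutant libraries lay below both wild-type libraries in CPM, as did 15.1% of all genes. For Pdgfd the margin was below the rounding, with 11.1 CPM in both mutant replicate 1 and wild-type replicate 2. These libraries are separate samples by their labels, and the p-values measure only the spread between them.

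**Figure D1:**
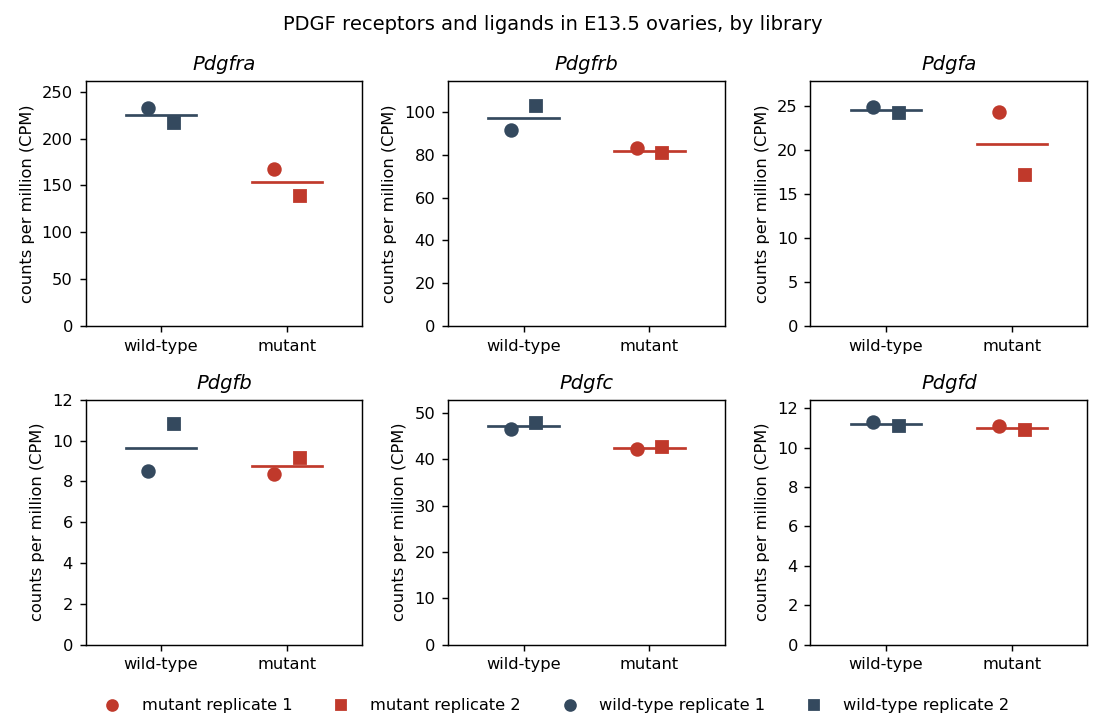
CPM (y axis, starting at 0) of each receptor and ligand in the wild-type and mutant libraries (x axis), with circles for replicate 1, squares for replicate 2 and a line at the group mean. Pdgfra lies at 139 and 168 CPM in the mutants and at 217 and 233 CPM in the wild type, while the groups of Pdgfa and Pdgfb overlap.

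Pdgfra encodes the receptor α chain and lies at chr5:75548316-75594229 on the plus strand (NCBIM37, GENCODE M1), with 23 exons in its longest coding transcript. Mutant replicates 1 and 2 had 1852 and 2086 counts of it, and wild-type replicates 1 and 2 had 4003 and 3836. This corresponded to 168 and 139 CPM in mutant replicates 1 and 2, and to 233 and 217 CPM in wild-type replicates 1 and 2. Both mutant libraries were thus below both wild-type libraries, with mutant replicate 2 the lowest of the 4. The mutant mean was 153 ± 20.8 CPM (SD, n = 2), and that of the wild type was 225 ± 10.8 CPM (SD, n = 2). On the log2 scale the difference came to -0.55 (standard error 0.12, 95% interval -0.83 to -0.28), a level 31.9% lower in the mutants. Its adjusted p was 0.301 (edgeR), with an unadjusted p of 0.00209 in the same fit across all genes, in which 105 genes had a smaller p. A log2 fold change at or below that of Pdgfra was found in 735 genes, or 4.76% of those tested. By DESeq2 Pdgfra fell by 0.56 on the log2 scale (standard error 0.13, adjusted p = 0.00679). The size of the difference was therefore nearly the same in both tools, and the call was not. Without mutant replicate 1, whose value was nearer to the wild type, Pdgfra passed also in edgeR's test, with a log2 fold change of -0.70 and an adjusted p of 0.0226 that assumes the lone mutant library to vary like the wild-type pair. Without mutant replicate 2 the log2 fold change was -0.42 (adjusted p = 0.318, edgeR).

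**Figure D2:**
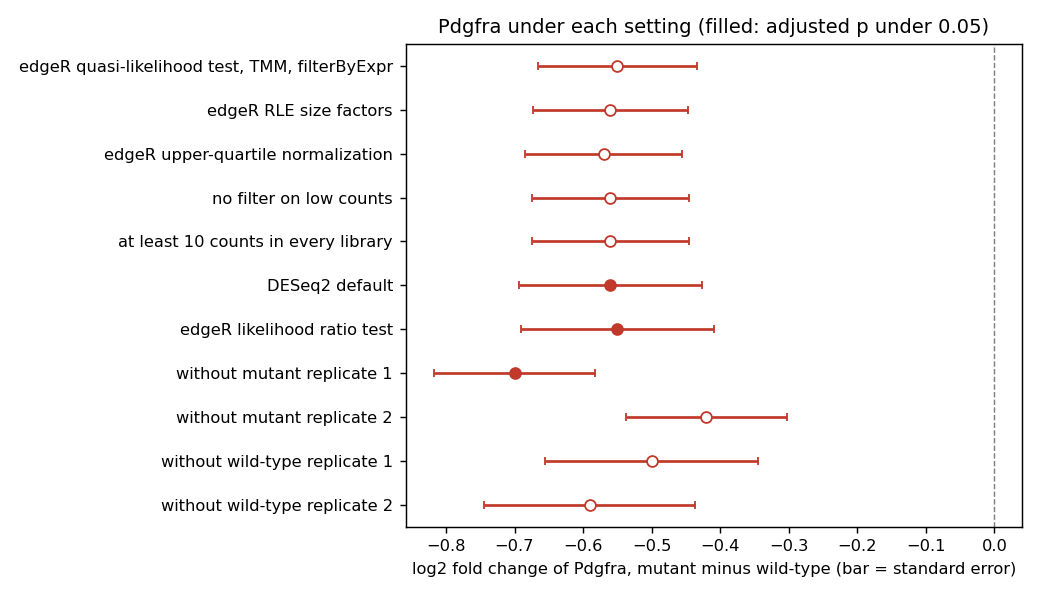
Log2 fold change of Pdgfra, mutant minus wild-type (x axis), with bars of 1 standard error, under the settings of the fit without a replicate block (y axis), filled where the adjusted p is under 0.05. The estimates shown lie between -0.70 and -0.42, and the filled points are DESeq2, the likelihood ratio test and the fit without mutant replicate 1.

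Pdgfrb encodes the receptor β chain, the receptor of pericytes and other mural cells, and lies on chromosome 18. It had 916 and 1214 counts in the mutants and 1577 and 1825 in the wild type. The levels were 83.1 and 80.7 CPM in mutant replicates 1 and 2, and 91.7 and 103 CPM in wild-type replicates 1 and 2. The groups did not overlap, and wild-type replicate 1 was the nearer of its group to the mutants. The log2 fold change was -0.25 (standard error 0.10, 95% interval -0.50 to -0.0071), with adjusted p-values of 0.859 (edgeR) and 1.00 (DESeq2). It was -0.15 without wild-type replicate 2 and -0.34 without wild-type replicate 1.

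Within a library, the ratio of Pdgfra to Pdgfrb does not depend on library scaling. Per kb of the longest coding transcript, it was 1.67 and 1.42 in mutant replicates 1 and 2 and 2.10 and 1.73 in wild-type replicates 1 and 2. The ratio was lower in both mutants, but only narrowly when mutant replicate 1 is set against wild-type replicate 2. The log2 ratio differed by -0.31 (SD 0.17 in mutant and 0.19 in wild-type ovaries, n = 2 each), with p = 0.33 in an exact two-sided permutation test, the smallest p that 2 libraries against 2 allow. Pdgfra made up 58.6% to 62.5% of the receptor transcripts per length in the mutants and 63.4% to 67.7% in the wild type. With 1 library left out, the difference of the log2 ratio was -0.17 without wild-type replicate 1, -0.19 without mutant replicate 2, -0.43 without mutant replicate 1 and -0.45 without wild-type replicate 2. Its sign was the same in each case, and this design does not allow a p under the threshold.

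Pdgfc encodes a ligand of the Pdgfra receptor that is secreted with a CUB domain and needs cleavage to become active. It lies at chr3:80840338-81017962 on the plus strand (NCBIM37). Its levels were 42.3 and 42.7 CPM in mutant replicates 1 and 2 and 46.5 and 47.8 CPM in wild-type replicates 1 and 2. The groups were apart and each was tight, but the step was small, and the log2 fold change came to -0.15 (standard error 0.11, 95% interval -0.40 to 0.10, adjusted p = 1.00, edgeR).

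Pdgfa, at chr5:139451968-139473324 on the minus strand (NCBIM37), encodes the A chain, a ligand of the Pdgfra receptor. It had 24.3 and 17.1 CPM in mutant replicates 1 and 2 and 24.9 and 24.2 CPM in wild-type replicates 1 and 2. Mutant replicate 1 stood within the wild-type range and mutant replicate 2 below it. The mutant libraries differed from each other by 0.501 on the log2 scale, where the median gene differed by 0.197 between them. The log2 fold change was -0.25 (standard error 0.18, 95% interval -0.68 to 0.18, adjusted p = 1.00, edgeR), and leaving out each library in turn gave -0.52 to -0.014, the latter without mutant replicate 2.

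Pdgfb, at chr15:79826330-79845238 on the minus strand (NCBIM37), encodes the ligand that endothelial cells give to pericytes. It was the least counted member, with 92 to 190 counts, where counting error alone is 7.25% to 10.4%. The levels were 8.35 and 9.17 CPM in the mutants and 8.49 and 10.8 CPM in wild-type replicates 1 and 2, and the groups overlapped. The log2 fold change was -0.13 (standard error 0.21, 95% interval -0.63 to 0.37, adjusted p = 1.00, edgeR) and changed sign to 0.059 without wild-type replicate 2.

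Pdgfd encodes the other ligand with a CUB domain and lies at chr9:6168612-6378843 on the plus strand (NCBIM37). It had 11.1 and 10.9 CPM in the mutants and 11.3 and 11.1 CPM in the wild type. These 4 values lay nearly on top of each other, and the log2 fold change was -0.031 (standard error 0.17, 95% interval -0.43 to 0.37, adjusted p = 1.00, edgeR). The interval still leaves room for changes in either direction. Ddi1 overlaps Pdgfd on the opposite strand, and strand handling is not stated, but Ddi1 itself had at most 1 count in each library. GENCODE M1 gives 0 overlapping genes for each of the other members.

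**Figure D3:**
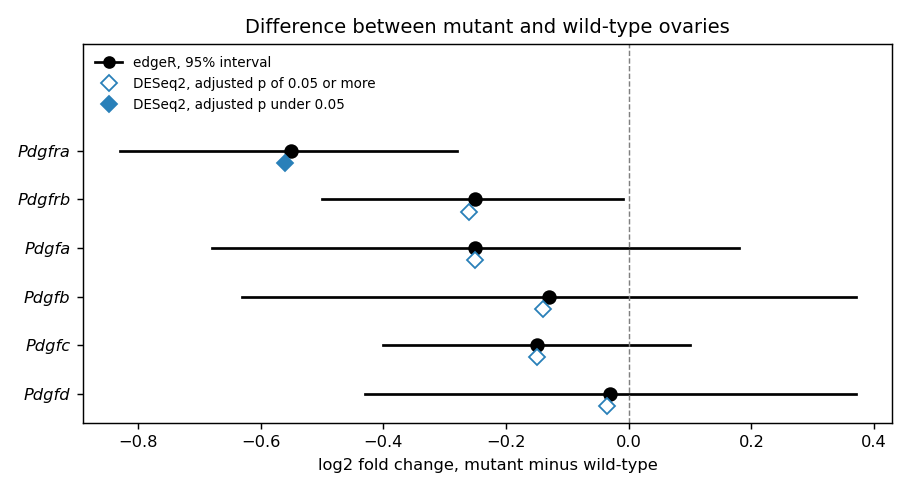
Log2 fold change, mutant minus wild-type (x axis), of the 6 genes (y axis), with edgeR's estimate and its 95% interval in black and the DESeq2 estimate as a diamond, filled where its adjusted p is under 0.05. The intervals of Pdgfra and Pdgfrb lie below 0 and those of the 4 ligands span it, and only the Pdgfra diamond is filled.

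The summed level of the 4 ligands, in CPM per kb, reached 30.3 and 27.2 in mutant replicates 1 and 2 and 31.9 and 32.6 in wild-type replicates 1 and 2. Both mutant sums were below both wild-type sums. The log2 of the sum differed by -0.17 (SD 0.11 in mutant and 0.023 in wild-type ovaries, n = 2 each), with p = 0.33 in an exact two-sided permutation test, again the smallest p possible. Without mutant replicate 2 the difference was -0.091.

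Ranked by level per length over the 4 libraries, the receptors stood above the ligands. Pdgfra was highest with 28.8 CPM per kb (range 21.1 to 35.4), followed by Pdgfrb with 16.5 (14.9 to 19.1), and the ranges of these receptors did not overlap. Pdgfc with 12.7 CPM per kb (12 to 13.6) and Pdgfa with 11 (8.32 to 12.1) came next and overlapped each other, as did Pdgfd with 3.64 (3.57 to 3.71) and Pdgfb with 3.15 (2.86 to 3.69). The largest step between neighbours was the 3.02-fold one from Pdgfa to Pdgfd. Pdgfa and Pdgfc, the ligands of Pdgfra, thus made up most of the ligand transcripts per length, with Pdgfc at 39.6% to 44.6% and Pdgfa at 30.7% to 39% of the sum. The order was the same with exon union lengths, with RLE size factors and without each library in turn.

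**Figure D4:**
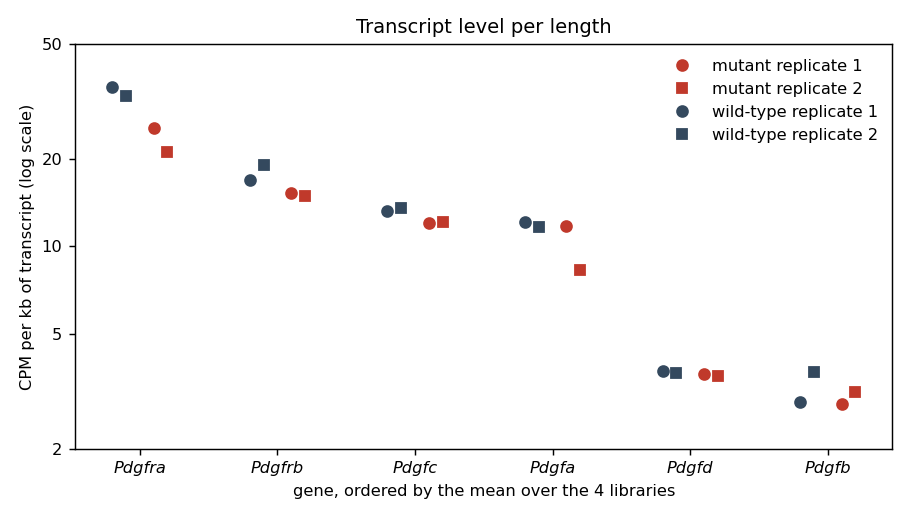
Level per length of each member (x axis, ordered by mean) in CPM per kb of transcript on a log scale (y axis), with circles for replicate 1 and squares for replicate 2 of the mutant and wild-type groups. The receptors lie between 14.9 and 35.4, Pdgfc and Pdgfa between 8.32 and 13.6, and Pdgfd and Pdgfb between 2.86 and 3.71.

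Genes that act around the receptors were followed by lists. Of 15 genes for PDGF processing and co-receptors, all were tested and 0 passed in either direction in edgeR's or DESeq2's test, with a median log2 fold change of -0.070. At an unadjusted p under 0.05, 4 of the 15 were lower, where 2.73% of all genes tested were, and 1 was higher, the convertase gene Pcsk6 with a log2 fold change of 0.28. No share of all genes higher at that p is given. Those lower were Plat, the tissue plasminogen activator that cleaves PDGF-C, with 73.9 and 75.6 CPM in the mutants and 93.5 and 101 CPM in the wild type, and Plau, the urokinase that cleaves PDGF-D, with 19 and 11.4 against 22.4 and 25 CPM. The others were Pcsk5, a proprotein convertase, with a log2 fold change of -0.55, and Cspg4, a pericyte proteoglycan that binds PDGF-A, with -0.36, and their adjusted p-values were 0.43 and 0.744 (edgeR). Furin, which also matures PDGF precursors, had 95 to 99.7 CPM in all 4 libraries.

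Inside the cell, 32 genes of receptor-proximal signalling had a median log2 fold change of -0.0091, and 0 of them passed in either test. Of the 32, 2 were lower and 0 higher at an unadjusted p under 0.05 (edgeR), where 2.73% of all genes tested were lower. Pik3r1, a PI3-kinase subunit that docks on activated receptors, had 93.6 and 82 CPM in the mutants and 105 and 118 CPM in the wild type (adjusted p = 0.701, edgeR). Stat5b had 28 and 26.1 CPM in the mutants and 35 and 31.6 CPM in the wild type. In 7 of the 32, both mutant libraries lay below both wild-type libraries, and in 4 above, beside 15.1% and 15.8% of all genes. The 19 genes that attenuate receptors, such as phosphatases and Sprouty genes, had a median of -0.024, and 23 genes of the early response to growth factors, such as Fos and Egr1, had -0.056. In both lists 0 genes passed in edgeR's or DESeq2's test, and 0 had an unadjusted p under 0.05.

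Among the 13 related growth factors and receptor kinases tested, 0 passed in either test. Kit and Kdr follow Pdgfra on chromosome 5, with gaps of 376.7 and 734.6 kb (NCBIM37). Kdr, the main VEGF receptor of endothelial cells, had 95.1 and 90.5 CPM in the mutants and 129 and 126 CPM in the wild type. Its log2 fold change of -0.46 missed the threshold in edgeR (adjusted p = 0.266) and narrowly in DESeq2 (adjusted p = 0.0564). Kit, the stem cell factor receptor of germ cells, had 206 and 195 CPM in the mutants and 174 and 178 CPM in the wild type, a log2 fold change of 0.19 (adjusted p = 0.938, edgeR).

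The cells that carry the receptors were followed by marker lists. In bulk tissue, fewer cells of a type and less RNA per cell cannot be told apart. Of 20 interstitial and mesenchymal markers, 14 had a negative log2 fold change and the median was -0.23, beside -0.00088 over all genes. The median was -0.39 without mutant replicate 1 and -0.034 without mutant replicate 2. None passed in edgeR's test (0 of 20). At an unadjusted p under 0.05, 5 of the 20 were lower, where 2.73% of all genes tested were. Another 2 were higher, a count for which no share over all genes is given. In DESeq2's test 2 of the 20 fell, where 0.428% of all genes did. These were Tcf21, a transcription factor of gonadal interstitial progenitors, with 28 and 23.3 CPM in the mutants against 57.7 and 51.7 CPM in the wild type (log2 fold change -1.10, adjusted p = 2.71e-06, DESeq2), and Lum, a matrix proteoglycan, with 27 and 19.5 against 37.2 and 42.9 CPM (-0.79, adjusted p = 0.038, DESeq2). Nr2f2, a defining interstitial factor, had 67.7 and 44.8 CPM in the mutants and 85.9 and 69.6 CPM in the wild type, so that its groups nearly met (adjusted p = 0.891, edgeR).
Relative to these markers, Pdgfra was below the wild type in both mutant libraries. Its CPM came to 5.06% and 6.25% of the summed interstitial markers in mutant replicates 1 and 2 and to 7.66% and 7.04% in the wild-type replicates. Collagens made up 74.3% to 78% of that sum. With the 4 collagens left out, a choice made after the values were seen, Pdgfra came to 23% and 24.4% in the mutants and 30% and 27.9% in the wild type. The part of interstitial cell number in the difference of Pdgfra was not tested beyond these values.

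Mural cell markers had a median of -0.22 over 14 genes, 0 of which passed in edgeR's test. With DESeq2, 1 of them fell, the endothelin receptor gene Ednra, with 34.4 and 35.4 CPM in the mutants against 67.4 and 65.6 CPM in the wild type (log2 fold change -0.93, adjusted p = 6.29e-06). Another, the aminopeptidase gene Anpep, rose from 117 and 103 to 186 and 170 CPM (0.69, adjusted p = 0.000114, DESeq2). Over all genes, DESeq2 called 0.428% as lower and 0.286% as higher in mutants. The pericyte markers Rgs5 and Kcnj8 had only 3.26 to 10.5 CPM and overlapped between groups. At an unadjusted p under 0.05 (edgeR), 3 of the 14 mural markers were lower, where 2.73% of all genes were. Another 1 was higher, with no share over all genes given for that direction. The lower ones were Ednra, Cspg4 and Mcam. Cspg4 had 20.5 and 20.5 CPM in the mutants and 26.9 and 25.7 CPM in the wild type. Mcam had 55.9 and 56.2 CPM in the mutants and 68.4 and 66 CPM in the wild type. The 16 endothelial markers had a median of -0.064 with 0 passing in either test, and Pecam1, a defining endothelial gene, had 166 and 153 CPM in the mutants and 160 and 156 CPM in the wild type. Of the 16, 11 had a negative log2 fold change. Both mutant libraries lay below both wild-type libraries in 5 of them and above in 0, beside 15.1% and 15.8% of all genes. Kdr, described above, is on this list and was the 1 marker lower at an unadjusted p under 0.05 (edgeR).
Of the other cell types, surface epithelium had a median of -0.22 over 7 genes, 2 of which, Upk3b and Aldh1a2, fell in DESeq2's test (adjusted p = 0.00532 and 3.06e-08). In that test 0.428% of all genes fell. The 11 pre-granulosa markers had a median of 0.038, of which Bmp2 and Lhx9 fell in DESeq2's test (adjusted p = 0.00907 and 0.0233), beside the same 0.428% of all genes. Both mutant libraries lay above both wild-type libraries in 5 of these markers and below them in 2. Of all genes, 15.8% lay above and 15.1% below. At an unadjusted p under 0.05 (edgeR), 3 of the markers were higher (Foxl2, Nr0b1 and Irx3) and 2 lower (Bmp2 and Lhx9). Over all genes tested, 2.73% were lower at that p. The share of all genes higher at that p is not given, for these markers or the lists below. Foxl2, a defining granulosa factor, was among the higher ones, with a log2 fold change of 0.59 (unadjusted p = 0.00204, adjusted p = 0.301, edgeR; adjusted p = 0.138, DESeq2). Medians were 0.013 for 9 Sertoli genes, -0.15 for 6 fetal Leydig genes, -0.014 for 12 germ cell genes, -0.0052 for 10 mesonephric duct and tubule genes and 0.16 for 10 macrophage genes, with 0 genes passing in either test. At an unadjusted p under 0.05 (edgeR), 2 of the Sertoli genes were higher and 0 lower, while 4 of the 9 had a negative log2 fold change. In 3 of the 9, both mutant libraries lay above both wild-type libraries, and in 0 below, beside 15.8% and 15.1% of all genes. The 2 higher ones were Ptgds and Aard. Ptgds had 3.45 and 4.45 CPM in the mutants and 1.16 and 1.19 CPM in the wild type. Aard had 24 and 21.1 CPM in the mutants and 12.8 and 15 CPM in the wild type. At that p, 1 Leydig gene was higher and 1 lower, and 1 mesonephric gene was higher. The 7 blood genes had a median of -0.43. The 9 muscle genes had a median of -1.61 with 0 passing in either test, which became 0.78 without wild-type replicate 1. Without that library the log2 fold change of Pdgfra was -0.50 (adjusted p = 0.885, edgeR).

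**Figure D5:**
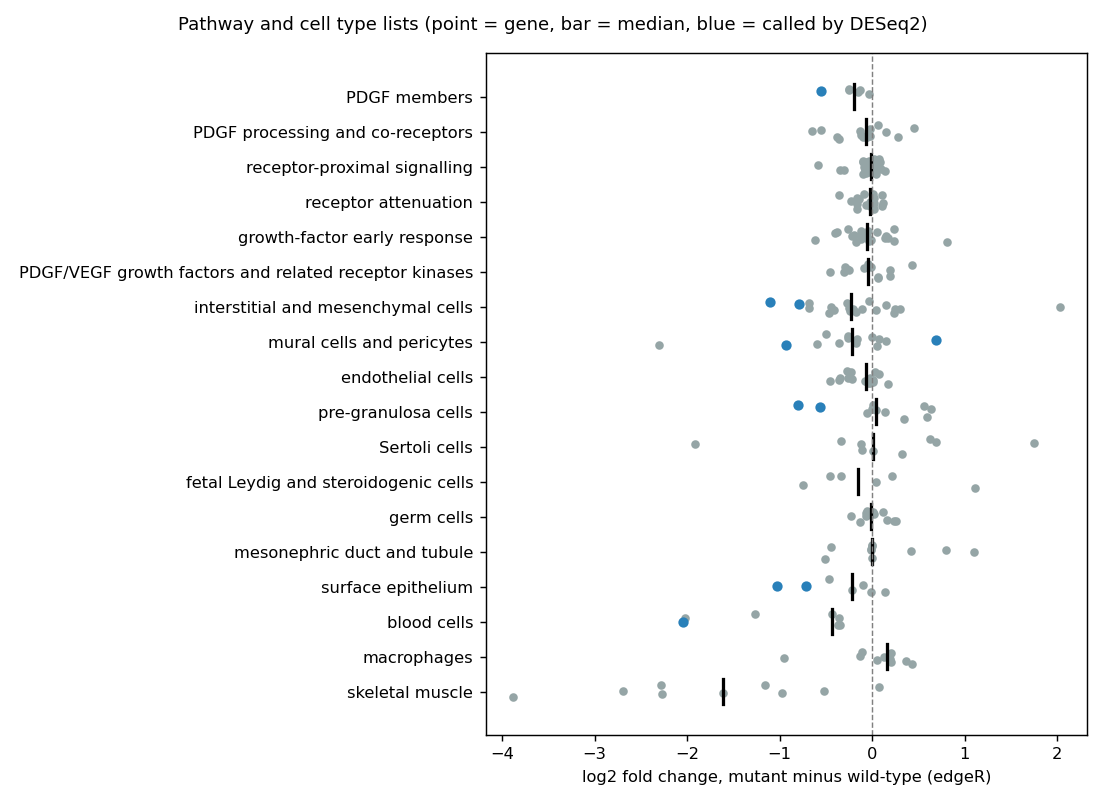
Log2 fold change, mutant minus wild-type (x axis, edgeR), of each tested gene of the pathway and cell type lists (y axis), with a bar at the list median and genes called by DESeq2 in blue. The interstitial, mural and surface epithelium lists have medians of -0.23, -0.22 and -0.22, and the signalling lists lie near 0.

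Mmp14 encodes the membrane protease that the study names beside PDGFRa as a migration marker in gonads of female moles. In mouse ovaries that overexpress Sall1, the study reports seeing no migration beyond the wild type. Mmp14 had 194 and 205 CPM in the mutants and 202 and 197 CPM in the wild type, with an adjusted p of 1.00 (edgeR). Its interval of -0.21 to 0.21 on the log2 scale lies above the estimate for Pdgfra.

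The genes whose centred log2 CPM over the 4 libraries were nearest to those of Pdgfra were Igfbp3, an IGF-binding protein gene, the homeobox gene Hoxd9, the polysialyltransferase gene St8sia4, Tceal3 and the junctophilin gene Jph2, at Euclidean distances of 0.0529 to 0.0637. Their log2 fold changes ran from -0.52 to -0.60. The nearest to Pdgfrb were Zcchc24, Sept8 and 2410006H16Rik, at 0.0181 to 0.0345. The nearest to the ligands were Depdc1a for Pdgfa, Cox8a for Pdgfb, Mmp17 for Pdgfc and Pwwp2b for Pdgfd. With 4 libraries and 15442 genes such neighbours are a description only.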

How the data were processed

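RNA was measured in 4 libraries of mouse ovaries at E13.5, 2 mutant and 2 wild-type. The authors aligned reads with STAR (2.6.1d) and counted them per gene with summarizeOverlaps, and the deposited values are these counts, neither normalized nor pooled. The submitters' processing notes name mm9, while annotation and strand handling are not given in the sources used here. Every column was matched to a library by genotype and replicate number, with 0 columns unused.

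The counts of 34682 genes were analysed in R 4.3.3 with edgeR 4.0.16 (TMM, filterByExpr, quasi-likelihood test, genotype as the only factor) and Benjamini-Hochberg adjustment at 0.05 over the 15442 genes tested. Each standard error was taken as the fold change divided by the root of its F statistic. DESeq2 1.42.0 with default settings, the tool of the study, was an alternative. The others were RLE and upper-quartile normalization, no filter, at least 10 counts in every library, the likelihood ratio test, a block for the replicate number, exon union lengths, and leaving out each library, where a lone library is assumed to vary like the pair. DESeq2 with the block was added after the data were seen. Libraries of a group differed by more than sampling noise (chi-square per degree of freedom 11.8 and 13.2). The floor of 3 counts and counting errors cover counting error only.

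Levels per length used the longest coding transcript in GENCODE M1 on NCBIM37, the assembly of mm9, and promoters came from RefSeq on GRCm38.p6. Log2 CPM used a prior count of 2. The fits were tested on simulated data whose planted changes were larger than those of the members, so the test does not show whether changes of the members' size would be found. The members and gene lists were chosen with earlier results of these data known. Genes named were the 6 members, list members called by a tool (except an item that is not reported here), the first markers of a list, Sall1, Mmp14 and the nearest genes by centred log2 CPM. Plat, Plau, Pcsk5, Pcsk6, Furin, Pik3r1, Stat5b, Kit, Kdr, Myh3, Mcam, Nr0b1, Irx3, Ptgds, Aard and Amh were chosen after their values were seen.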

Additional observations from a re-analysis of the deposited data

How the results depend on the processing

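The log2 fold change of Pdgfra, -0.55 in the reported fit, passed the threshold at -0.56 with DESeq2 (adjusted p = 0.00679), at -0.55 with the likelihood ratio test (adjusted p = 0.0128, edgeR), at -0.56 with the replicate block (adjusted p = 0.00131, edgeR) and at -0.56 with DESeq2 and the replicate block (adjusted p = 0.00118). It did not pass with RLE or upper-quartile normalization, no filter, or at least 10 counts in every library. With each library left out it ranged from -0.70 to -0.42 (adjusted p 0.0226 to 0.885, edgeR) and passed only without mutant replicate 1. That of Pdgfb, -0.13, ranged from -0.29 to 0.059 and reversed to 0.059 without wild-type replicate 2. Pdgfa, Pdgfc, Pdgfd and Pdgfrb kept their sign and stayed above the threshold in every setting.

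The number of members called, 0, was 1 with DESeq2, the likelihood ratio test, the replicate block and DESeq2 with the replicate block, each time Pdgfra, and 0 to 1 with each library left out. All genes called, 9, became 28 with no filter, 19 with at least 10 counts in every library, 105 with DESeq2, 134 with the likelihood ratio test, 385 with the replicate block, 118 with DESeq2 and the replicate block, and 4 to 130 with each library left out, namely 130 without mutant replicate 1, 38 without mutant replicate 2, 7 without wild-type replicate 1 and 4 without wild-type replicate 2. The cause was not tested.

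The block is given here only, because neither the labels nor the methods say that a shared replicate number marks a litter, batch or day, although the count columns of same-numbered libraries carry consecutive library numbers. Deviations from the group mean correlated at 0.481 between libraries of the same number, over genes, which are not replicates, but the block leaves 1 residual degree of freedom. It changed no call of the other members, and among the processing genes it called Pcsk5 and Plat. Of the list medians under RLE, the block and each library left out, 86 moved by less than the spread between replicates and 22 by more, the latter all with a library left out. With 2 libraries a group, the exact tests cannot pass the threshold and say nothing on stability.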
